A study of Mus musculus with 16 samples.

Results

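Retinal microglia of 24-month-old mice were compared with those of 12-month-old mice. The arrays were chosen by their titled age, 4 at 24 months and 4 at 12 months, which makes 8 of the 16 arrays of the series, and all 16755 measured features were compared. Both groups came from wild-type C57BL/6 mice. The labels also give each array a running number, 7, 8, 11 and 13 at 24 months against 1, 2, 3 and 6 at 12 months, without saying what it stands for, so age and array number cannot be told apart. The cells were sorted from the retina by flow cytometry with a FITC-coupled antibody against CD11b, an integrin that monocytes, macrophages and neutrophils carry as well as microglia. Starting amounts of total RNA were below 5 ng, and the RNA was amplified before labelling with biotin, and the arrays were Affymetrix exon arrays, whose probes sit in many exons of a gene. By label the 4 arrays per age are biological replicates, but whether each came from 1 animal or from several pooled is not stated, so the p-values measure only the spread between these samples. Levels are log2 values made with RMA by the authors, and a difference is the 24-month mean minus the 12-month mean on that scale. In such bulk samples, fewer cells of a type and less RNA per cell cannot be told apart.

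Microglia are the resident macrophages of the retina. They survey the tissue through branched processes, clear debris and outer segment material, and release cytokines, chemokines, complement proteins and growth factors. With age they are known to accumulate next to the photoreceptors and the pigment epithelium. Type I interferon acts through STAT and IRF factors to switch on antiviral genes. Immediate early genes are transcription factors and feedback regulators that cells switch on soon after a stimulus.

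The labelled cell type was checked first. Cx3cr1, the fractalkine receptor, stood at 9.91, 12.65, 12.76 and 12.57 in 24-month microglia, against 12.75, 12.62, 12.81 and 12.05 in 12-month microglia. One array stood apart from the other 7. On 24-month replicate 1 every one of the 7 identity genes had its lowest level of the 8 arrays, and 12-month replicate 4 had the next lowest. Itgam, the gene of the sort antigen CD11b, stood at 7.20, 10.03, 10.12 and 10.27 in 24-month microglia, against 9.83, 9.71, 10.01 and 8.61 in 12-month microglia. On 24-month replicate 1 it was near the array's median of 6.94. The score of the microglia list, the mean of its 11 measured members after each was centred over the 8 arrays, was −2.26, 0.38, 0.58 and 0.32 on the 24-month arrays, against 0.30, 0.61, 0.57 and −0.50 on the 12-month arrays. Rod genes ran the other way, with a score over 15 members of 0.92, −0.04, −0.15 and 0.18 on the 24-month arrays, against −0.41, −0.67, −0.24 and 0.41 on the 12-month arrays. Müller glia, the radial glia of the retina, scored 0.79, 0.42, −0.11 and −0.09 on the 24-month arrays, against −0.23, −1.03, −0.29 and 0.53 on the 12-month arrays. The 2 arrays lowest in microglia genes were thus the 2 highest in rod and Müller glia genes. On the leading principal component, with 39.9% of the variance, 24-month replicate 1 lay at 70.3 and 12-month replicate 4 at 30.5, and the other 6 arrays lay between −37.9 and 3.80. Across features, 24-month replicate 1 correlated best with 12-month replicate 4 (Spearman's rho 0.943 over 16755 features of the same arrays). Results below are therefore given with and without 24-month replicate 1 where they rest on it.

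**Figure D1:**
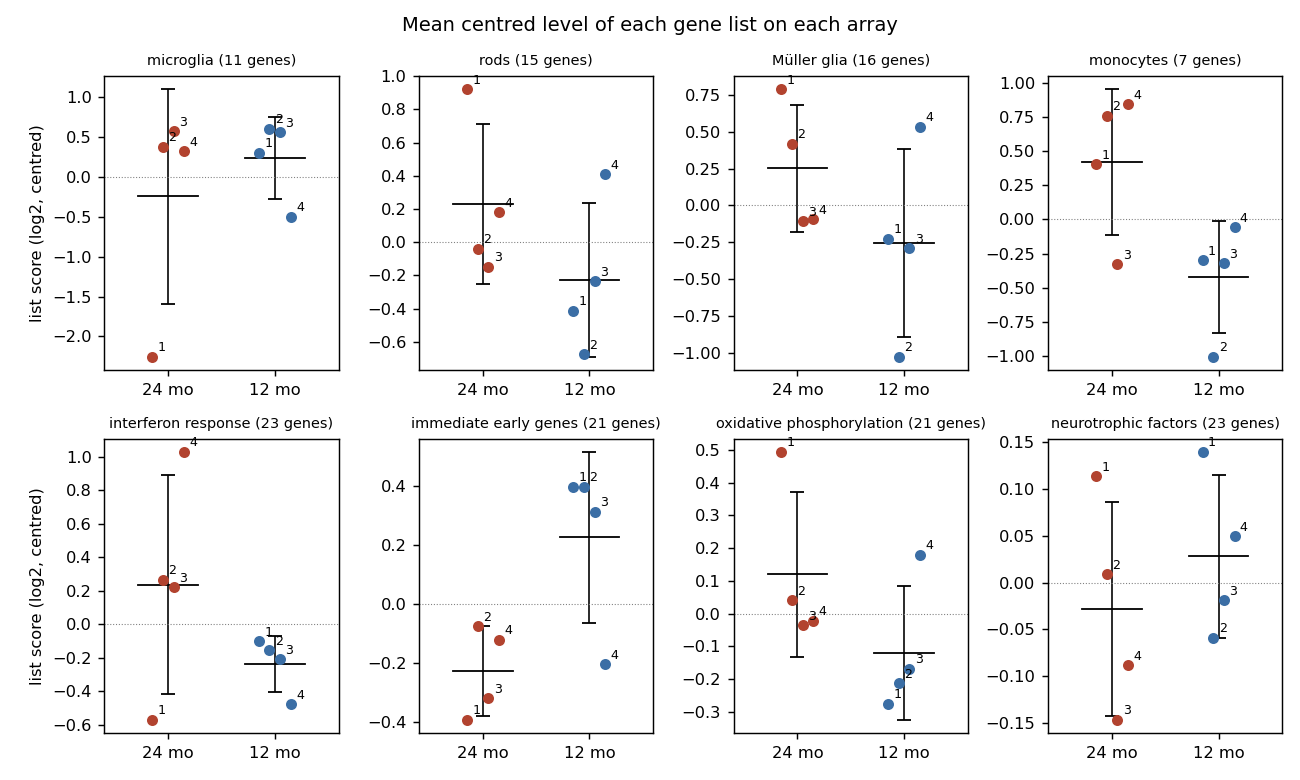
Scores of 8 gene lists (log2, each member centred over the 8 arrays) on the 24-month arrays (left, red) and the 12-month arrays (right, blue). Numbers are replicates, horizontal lines are group means and bars are SDs of 4 arrays. The microglia score of 24-month replicate 1 (−2.26) lies far below the other arrays, and its rod score (0.92) is the highest of the 8.

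The markers of microglial identity differed by less than the spread between arrays. P2ry12, a purinergic receptor of resting microglia, stood at 8.69, 11.78, 11.97 and 11.71 in 24-month microglia, against 11.87, 12.26, 12.38 and 11.37 in 12-month microglia. Its difference was −0.93 (SE 0.712, adjusted p = 0.500 in limma). Tmem119, a surface marker of resident microglia, differed by −0.28 (SE 0.701, adjusted p = 0.847 in limma) and Csf1r, the receptor for the survival factor CSF1, by −0.31 (SE 0.636). For Aif1, which encodes Iba1, the difference was −0.32 (SE 0.466), and for the pan-leukocyte gene Ptprc it was −0.25 (SE 0.578). Without 24-month replicate 1 these differences became −0.15 for P2ry12, 0.45 for Tmem119, 0.38 for Csf1r, 0.18 for Aif1, 0.33 for Ptprc, 0.60 for Itgam and 0.10 for Cx3cr1, so 6 of the 7 turned positive. Over the 25 measured homeostatic microglia genes the median difference was −0.41 with the array and 0.17 without it.

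No feature passed an adjusted p of 0.05 in limma, so 0.0% of the 16755 features were called, and the smallest adjusted p was 0.279. At an unadjusted p under 0.05, 2771 features differed: 400 were higher (2.39% of all) and 2371 lower (14.2%). All 4 arrays at 24 months lay above all 4 at 12 months for 166 features (0.991%) and below them for 1787 (10.7%). The excess of lower features moved with the arrays' own medians, which were 6.92 to 6.98 at 24 months against 7.04 to 7.18 at 12 months, and the difference of the median feature was −0.12. After each array's median was subtracted, 969 features were higher and 553 lower at an unadjusted p under 0.05, so that the share of lower ones was 36.3% in place of 85.6%. Without overlap, 560 features were then higher and 440 lower. Overlap between the groups is given below for the values before this subtraction, so it too depends on the scaling. After quantile normalization, which gives all arrays the same distribution, 453 were higher and 861 lower. The excess of lower features thus shrank there but did not reverse. Directions of small negative differences therefore depend on the scaling, and lists are read below against the median feature.

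The lower and the higher features differed in level and in size. Of the 2371 lower ones, 876 lay in the dimmest tertile of the features, against 25 of the 400 higher ones. That tertile holds a share of 0.333 of all features by definition. The lower ones were thus near that share, and the higher ones were far below it. The median size of a difference was 0.64 among the higher features and −0.35 among the lower ones. Among the 400 higher features 78 differed by over 1, which is a doubling, and of the 2371 lower ones 9 differed by as much. Large differences were thus mostly on the higher side.

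**Figure D2:**
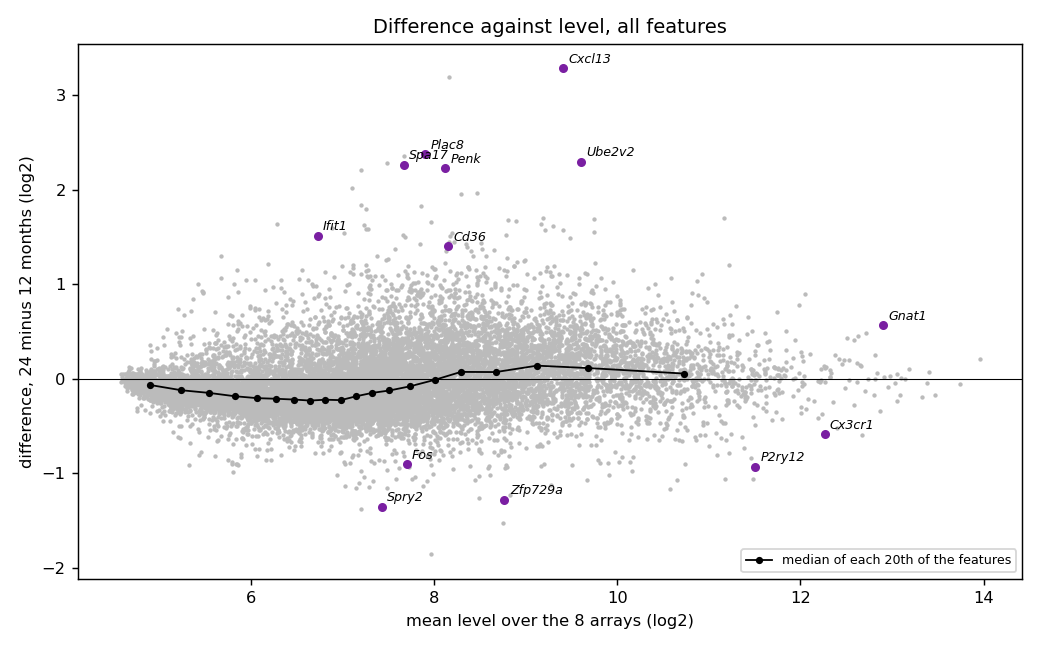
Difference between 24 and 12 months (log2, vertical axis) against the mean level over the 8 arrays (log2, horizontal axis) for all 16755 features, grey, with named genes in purple. The black line, the median in 20 equal bins of level, lies below 0 for dim features and slightly above 0 for bright ones, and Cxcl13 is the highest point at 3.28.

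Among single genes, the smallest p-value belonged to Hsd17b12 (feature 6888937), an enzyme of long-chain fatty acid elongation. It stood at 8.97, 8.93, 9.41 and 9.10 in 24-month microglia, against 7.98, 8.16, 7.97 and 7.93 in 12-month microglia. The groups lay far apart relative to their spread, with a difference of 1.09 (SE 0.129, adjusted p = 0.279 in limma) that ran from 0.99 to 1.15 as each array was left out. Plac8 (feature 6940358), a small cysteine-rich protein gene active in leukocytes, stood at 8.61, 9.30, 8.38 and 10.05 in 24-month microglia, against 7.03, 6.31, 7.21 and 6.29 in 12-month microglia. Every 24-month array lay above every 12-month array, and the difference was 2.38 (SE 0.394, adjusted p = 0.279 in limma). Penk (feature 6919320), the precursor gene of the enkephalin opioid peptides, stood at 10.41, 9.28, 7.91 and 9.31 in 24-month microglia, against 6.96, 6.84, 6.55 and 7.65 in 12-month microglia. The level was highest on 24-month replicate 1, and the difference was 2.23 (SE 0.492, adjusted p = 0.279 in limma) with that array and 1.83 without it. Ube2v2 (feature 6844176), a partner of the ubiquitin-conjugating enzyme Ube2n, stood at 11.07, 9.82, 11.23 and 10.86 in 24-month microglia, against 7.04, 9.20, 9.05 and 8.51 in 12-month microglia. The 12-month replicate 1 was the lowest of its group, and the difference of 2.29 (SE 0.512) became 1.83 at the least when an array was left out.

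Other higher genes without overlap between the groups were Rabgap1, a GTPase-activating protein gene, at 9.71 ± 0.147 in 24-month and 8.59 ± 0.311 in 12-month microglia (SD, n = 4 each), and Tmem218, a transmembrane protein gene, at 10.03 ± 0.826 in 24-month and 8.34 ± 0.188 in 12-month microglia (SD, n = 4 each). Spa17, first known as a sperm protein, averaged 8.80 ± 1.12 in 24-month and 6.54 ± 0.983 in 12-month microglia (SD, n = 4 each), and its arrays spread over more than 2 log2 units within each age. Smaller differences with small spread were found for Cpne3, a calcium-dependent membrane-binding protein, at 0.77 (SE 0.130), Suds3, a subunit of the Sin3 deacetylase complex, at 0.46 (SE 0.0895), and Poli, a translesion DNA polymerase, at 0.62 (SE 0.121). Mean levels at 12, 18 and 24 months were 6.71, 6.65 and 9.09 for Plac8 and 7.00, 7.23 and 9.23 for Penk, with the 18-month mean nearer to the 12-month one. They were 8.01, 9.07 and 9.10 for Hsd17b12, 8.59, 9.52 and 9.71 for Rabgap1 and 8.45, 10.81 and 10.75 for Ube2v2, with the 18-month mean nearer to the 24-month one. The 18-month arrays were not alike, and replicates 1 and 2 were low in microglia genes, with Cx3cr1 at 10.35, 11.04, 12.77 and 12.41. On these 4 arrays Plac8 stood at 5.52, 5.55, 8.31 and 7.22 and Hsd17b12 at 9.60, 9.49, 8.52 and 8.69, so that each mean combines arrays that stand apart. The 18-month values are a description and were not tested.

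On the lower side the largest difference without overlap was that of Spry2 (feature 6827284), a feedback inhibitor of receptor tyrosine kinase signalling. It stood at 6.56, 7.18, 6.71 and 6.56 in 24-month microglia, against 7.95, 7.44, 8.46 and 8.57 in 12-month microglia. The difference was −1.35 (SE 0.268, adjusted p = 0.279 in limma). At 18 months it stood at 8.75, 8.76, 6.47 and 7.60, high on the 2 arrays low in microglia genes. Mfsd5 (feature 6833403), a membrane transporter gene, stood at 8.45, 8.54, 8.80 and 8.74 in 24-month microglia, against 9.46, 9.43, 9.38 and 9.20 in 12-month microglia. Both groups were tight, and the difference was −0.74 (SE 0.114, adjusted p = 0.279 in limma). Zfp729a, a zinc finger gene with close relatives in the genome, differed by −1.28 (SE 0.266), Msrb2, a mitochondrial methionine sulfoxide reductase, by −1.03 (SE 0.389), or −0.66 without 12-month replicate 2, Mapk1ip1 by −1.02 (SE 0.228) and Sertad3 by −0.97 (SE 0.200). The 8 named lower features with the smallest p-values each differed by less than 1 in size. Tctex1d4, a dynein light chain gene, averaged 5.65 ± 0.178 in 24-month and 6.46 ± 0.118 in 12-month microglia (SD, n = 4 each). Ffar1, a fatty acid receptor, Aqp2, a water channel of the kidney, Gpr173, an orphan receptor, and Mfsd6l differed by −0.61, −0.55, −0.56 and −0.63. The olfactory receptor genes Olfr930 and Olfr285, members of a large family of similar genes, differed by −0.64 and −0.63. Relative to the median feature these 6 differences were between −0.51 and −0.42.

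**Figure D3:**
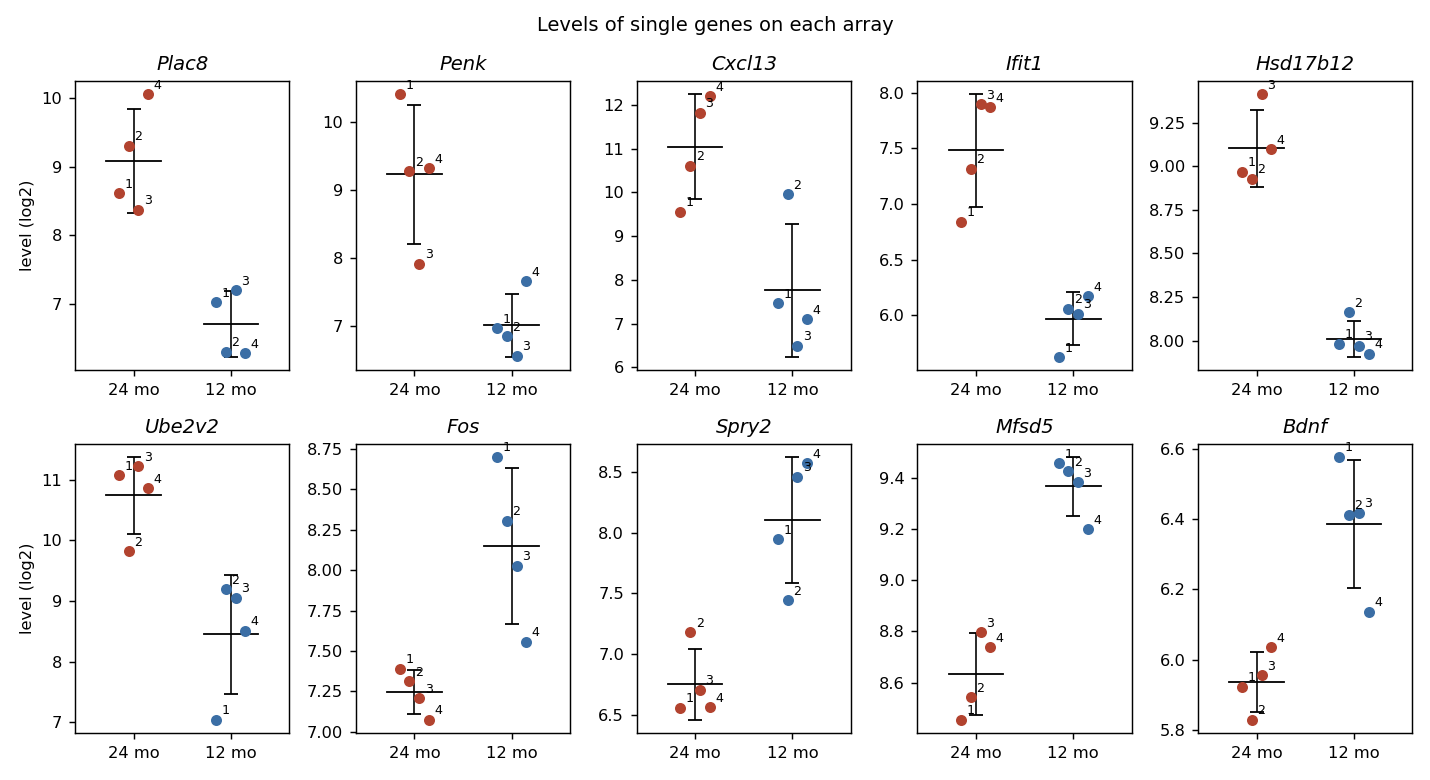
Levels (log2) of 10 genes on each array, 24-month arrays left in red and 12-month arrays right in blue, each panel with its own vertical scale. Numbers are replicates, lines are means and bars are SDs of 4 arrays. The groups do not overlap in 9 of the 10 panels, and Cxcl13 overlaps through 12-month replicate 2.

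Genes of the interferon response were mostly higher at 24 months. Of 23 measured members of 32 listed, 21 had a difference above 0, all but Irf5 and Irf3, against 32.2% of all features, and the median difference was 0.43 against −0.12 over all features. The list's median level was 7.88, and features at levels near 7.74 and 8.00 had median differences of −0.08 and −0.01. No member passed the adjusted test, 3 were higher at an unadjusted p under 0.05, against 2.39% of all features, and 2 of these did not overlap, against 0.991%. Among the 9 sensors and transcription factors the median was 0.33, and among the 14 antiviral effectors, all above 0, it was 0.61. Ifit1 (feature 6869334), which binds viral RNA that lacks a methylated cap, stood at 6.84, 7.32, 7.90 and 7.87 in 24-month microglia, against 5.62, 6.06, 6.01 and 6.17 in 12-month microglia. All 4 arrays at 24 months were higher, with a difference of 1.51 (SE 0.253, adjusted p = 0.279 in limma). Ifitm3, which blocks virus entry at endosomes, stood at 11.75, 11.62, 11.57 and 11.75 in 24-month microglia, against 11.39, 10.02, 11.00 and 11.22 in 12-month microglia. It did not overlap either and differed by 0.77 (SE 0.278, adjusted p = 0.282 in limma), or 0.47 without 12-month replicate 2, and the 12-month arrays spread more than the 24-month ones. Mx2, a dynamin-like antiviral GTPase, differed by 1.20 (SE 0.432), with 24-month replicate 1 at 6.76 inside the 12-month range. The helicase gene Ddx60, also induced by interferon but not on the list, stood at 6.11, 6.68, 6.41 and 6.46 in 24-month microglia, against 5.52, 5.69, 5.72 and 5.73 in 12-month microglia, without overlap and with a difference of 0.75 (SE 0.133, adjusted p = 0.279 in limma).

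Single arrays weighed on this list. Its score was −0.57, 0.27, 0.22 and 1.03 on the 24-month arrays, against −0.10, −0.16, −0.21 and −0.48 on the 12-month arrays. The 24-month replicate 4 was the highest and replicate 1 the lowest of all 8 arrays, while replicates 2 and 3 lay above every 12-month array. The list's median became 0.71 without 24-month replicate 1 and 0.20 without replicate 4. It was 0.09 among the arrays numbered 1 to 8, which hold all 12-month arrays but of the 24-month arrays only replicates 1 and 2. Ifit2, named after its values were seen, stood at 8.18, 9.30, 9.52 and 10.36 at 24 months, against 8.85, 8.49, 8.98 and 8.21 at 12 months. Gbp2, an interferon-induced GTPase also named after its values were seen, differed by 1.10 (SE 0.486) and was highest on 24-month replicate 4 at 9.64, without which it differed by 0.64. Irf5, a transcription factor of Toll-like receptor signalling, lay below the median feature at −0.62 (SE 0.347), or −0.34 without 24-month replicate 1.

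Many interferon-induced genes are known to carry a short element to which interferon-activated factors bind. The letters GAAANNGAAA, the core of the interferon-stimulated response element, were searched on both strands of the 250 bases before the start of each gene in RefSeq promoters of build GRCm38.p6. A match was found in 6 of the 17 interferon list members with a promoter entry (35.3%), against 936 of 27025 genes (3.50%). The list's genes were chosen for their place in the interferon response, so this share describes the list and not a difference between the ages. The members with a match were Ifit1, Gbp2, Gbp3, Rsad2, Bst2 and Stat2, so Ifitm3 and Mx2 were not among them. The stretches around the matches are shown for Ifit1 and Ddx60, the interferon-induced genes with the smallest p-values, and for Gbp2, with the matches in capitals. They lie on the plus strand at chr19:34640760-34640838 (Ifit1), chr8:61928009-61928086 (Ddx60) and chr3:142620579-142620638 (Gbp2). A match describes the letters only and does not show that a factor binds there.
Ifit1: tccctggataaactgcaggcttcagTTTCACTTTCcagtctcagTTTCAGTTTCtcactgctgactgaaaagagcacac
Ddx60: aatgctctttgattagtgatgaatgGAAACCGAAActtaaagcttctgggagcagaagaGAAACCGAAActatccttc
Gbp2: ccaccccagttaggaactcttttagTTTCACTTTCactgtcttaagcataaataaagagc
Ifit1 and Ddx60 each hold 2 matches in these stretches, on opposite strands from one gene to the other, and Gbp2 holds 1.

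Immediate early genes were mostly lower at 24 months. Of 21 measured members of 22 listed, only Egr2 had a difference above 0, and the median difference was −0.40, or −0.28 relative to the median feature. None passed the adjusted test, and 9 were lower at an unadjusted p under 0.05, against 14.2% of all features. Fos, the transcription factor gene of the AP-1 complex, stood at 7.39, 7.31, 7.21 and 7.08 in 24-month microglia, against 8.70, 8.31, 8.03 and 7.56 in 12-month microglia. The groups did not overlap and the difference was −0.90 (SE 0.229, adjusted p = 0.279 in limma). Jund, its partner in AP-1, and Dusp2, a phosphatase that turns off MAP kinases, also did not overlap, with differences of −0.38 (SE 0.117) and −0.36 (SE 0.0942). That count of 3 is near the background share of 10.7% of all features. Egr1, a zinc finger factor induced by growth signals, stood at 7.34, 7.44, 7.29 and 7.77 in 24-month microglia, against 8.46, 8.09, 8.05 and 7.70 in 12-month microglia. The 12-month replicate 4 lay inside the 24-month range, as it did for Jun and Btg2. Jun, Btg2, an antiproliferative gene, and Zfp36, which destabilises cytokine mRNAs, were named after their values were seen and differed by −0.90 (SE 0.274), −0.89 (SE 0.338) and −0.93 (SE 0.481). Zfp36 differed by −0.55 without 24-month replicate 1, and with the rod and microglia scores as covariates Jun differed by −0.44 and Btg2 by −0.48.

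The list's score was −0.39, −0.08, −0.32 and −0.12 on the 24-month arrays, against 0.40, 0.40, 0.31 and −0.20 on the 12-month arrays. The 12-month replicates 1 to 3 were higher than every other array, and 12-month replicate 4, which is also low in microglia genes, lay among the 24-month arrays. The median ran from −0.55 to −0.34 as each array was left out, was −0.38 without 24-month replicate 1 and was −0.45 among the arrays numbered 1 to 8. With the rod and microglia scores as covariates it was −0.27. The letters TGACGT, the core of sites bound by CREB and ATF factors, lay within 250 bases upstream of 5 of the 18 members with a promoter entry (27.8%), against 1971 of 27025 genes (7.30%). These were Atf3, Btg2, Dusp1, Egr2 and Fos. As with the interferon letters, this share describes the list and not a difference between the ages. The stretch of the Fos promoter at chr12:85473799-85473854 on the plus strand is shown with the match in capitals, since Fos had the smallest p-value of the list. It holds no match to the interferon letters.
Fos: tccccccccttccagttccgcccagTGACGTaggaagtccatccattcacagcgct

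**Figure D4:**
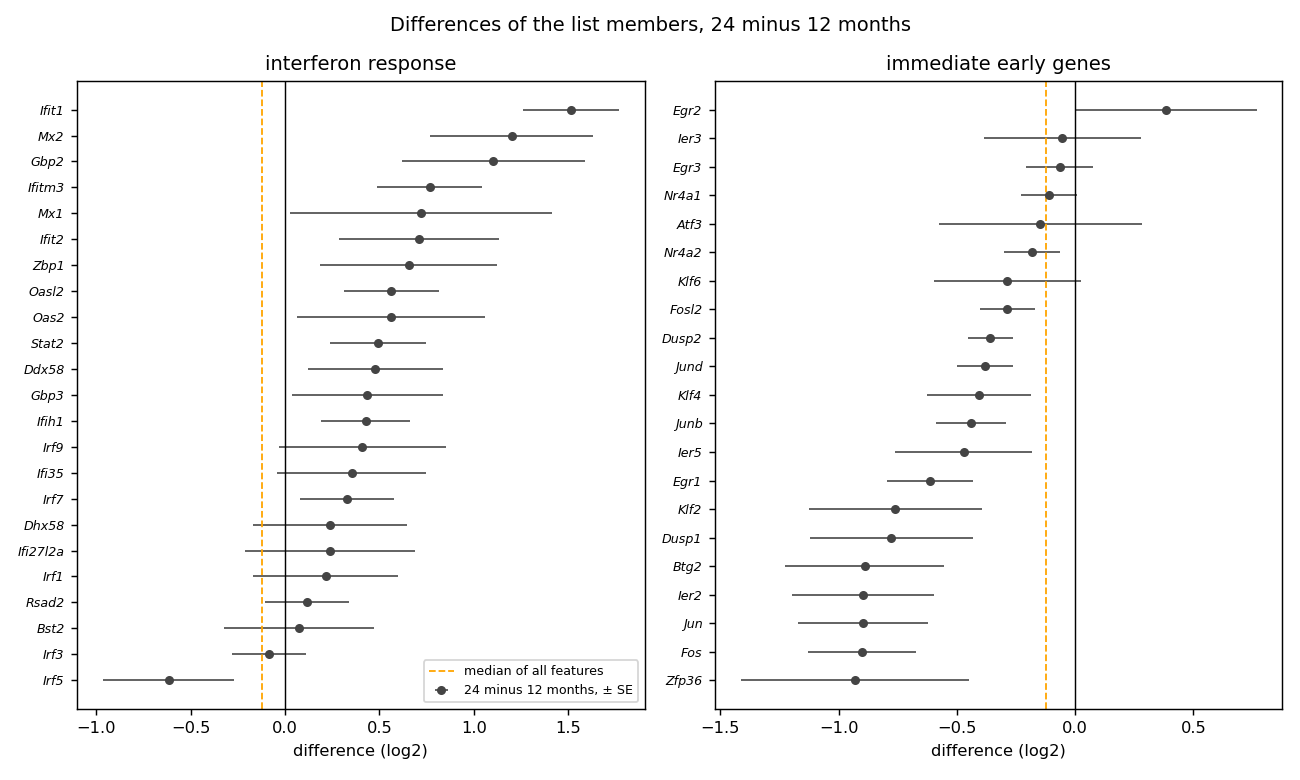
Difference between 24 and 12 months (log2) for each measured member of the interferon response list (left, 23 genes) and the immediate early gene list (right, 21 genes). Points are differences, bars are standard errors from limma with 4 arrays per age, and the dashed line is the median of all 16755 features at −0.12. Interferon genes lie mostly to the right of both lines and immediate early genes mostly to the left.

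Genes of blood monocytes were higher at 24 months on some arrays. The sort antigen CD11b does not separate these cells from microglia. Of 7 measured monocyte markers 6 had a difference above 0 and the median was 0.50. Besides Plac8, which is on this list, S100a4, a calcium-binding protein gene, stood at 8.91, 9.47, 7.94 and 9.86 in 24-month microglia, against 8.32, 7.44, 7.44 and 8.64 in 12-month microglia. Ccr2, the chemokine receptor that brings monocytes into tissue and named here after its values were seen, stood at 6.67, 9.77, 6.89 and 10.35 in 24-month microglia, against 6.83, 6.62, 6.74 and 7.42 in 12-month microglia. Replicates 2 and 4 at 24 months were high while replicates 1 and 3 stood within the 12-month range, and the difference was 1.52 (SE 0.846, adjusted p = 0.374 in limma), or 0.87 without replicate 4. The monocyte score was 0.40, 0.76, −0.33 and 0.84 on the 24-month arrays, against −0.30, −1.004, −0.32 and −0.06 on the 12-month arrays. The S100a8 and S100a9 genes, whose proteins pair as calprotectin in neutrophils and monocytes, were chosen after their values were seen. S100a9 stood at 10.40, 9.49, 5.22 and 10.26 in 24-month microglia, against 6.20, 5.70, 6.28 and 7.79 in 12-month microglia. The 24-month replicate 3 was low, the other 3 were high, and the difference was 2.35 (SE 1.13, adjusted p = 0.331 in limma), or 3.56 without replicate 3. The difference was 1.83 without 24-month replicate 1, the highest array, and 1.085 with the rod and microglia scores as covariates. S100a8 differed by 1.30 (SE 0.513), or 0.86 without 24-month replicate 1. Granule genes that define neutrophils did not follow: Ngp, Camp, Ltf, Elane, Mmp8 and Retnlg had mean levels of 5.22 to 7.04 and differences of −0.47 to 0.03. Over all 11 neutrophil markers 4 had a difference above 0, with a median of −0.18. The monocyte list's part in the interferon and chemokine values was not tested.

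Chemokines held the largest difference of any feature. Cxcl13 (feature 6932571), the ligand that draws B cells through CXCR5, stood at 9.55, 10.61, 11.82 and 12.19 in 24-month microglia, against 7.47, 9.96, 6.50 and 7.11 in 12-month microglia. The groups overlapped, since 12-month replicate 2 exceeded 24-month replicate 1. The difference of 3.28 (SE 0.844, adjusted p = 0.279 in limma) ran from 2.86 to 4.02 as each array was left out. Mean levels at 12, 18 and 24 months were 7.76, 8.66 and 11.04, and the 18-month arrays stood at 6.74, 8.24, 9.98 and 9.67. Cxcl16, a membrane-bound ligand and scavenger receptor named after its values were seen, stood at 8.59, 10.07, 10.14 and 10.48 in 24-month microglia, against 8.05, 8.75, 9.53 and 8.22 in 12-month microglia. It was 1.59 higher without 24-month replicate 1, against 1.18 with it. Of the 18 measured ligands 9 had a difference above 0, and of the 11 receptors 4. On the lower side, Cxcl1, a neutrophil attractant, and Cx3cl1, the fractalkine ligand that neurons present to microglia, did not overlap, with differences of −0.55 (SE 0.180) and −0.36 (SE 0.117), both dim on these arrays. Over the whole list of 29 genes 3 were lower without overlap, near the background share of 10.7% of all features. Ccl3, a monocyte attractant named after its values were seen, stood at 8.43, 10.51, 11.04 and 9.99 at 24 months, against 11.73, 11.40, 11.46 and 10.05 at 12 months, with 24-month replicate 1 the lowest array. Its difference was −1.17, or −0.65 without that array. Ccl2 stood at 7.08, 9.01, 8.91 and 10.21 at 24 months, against 10.22, 8.41, 9.85 and 8.38 at 12 months, and its 2 groups overlapped throughout.

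Among cytokines, Tnf stood at 6.26, 6.83, 6.78 and 6.62 in 24-month microglia, against 7.48, 7.76, 9.07 and 6.58 in 12-month microglia. Of the 12-month arrays 3 exceeded every 24-month array and 12-month replicate 4 did not. The difference was −1.10 (SE 0.465, adjusted p = 0.294 in limma), or −0.65 without 12-month replicate 3. Il12a and Il23a, subunit genes of interleukins 12 and 23, did not overlap and were lower by small amounts near the floor, −0.38 (SE 0.124) and −0.26 (SE 0.0862). They were the 2 of 33 list members that were lower without overlap, below the background share of 10.7% of all features. Il1b stood at 7.24, 8.14, 8.13 and 7.46 at 24 months, against 8.12, 7.92, 7.16 and 7.12 at 12 months, and the inflammasome sensor gene Nlrp3 at 6.35, 7.95, 7.97 and 8.56 at 24 months, against 7.90, 8.16, 8.61 and 7.13 at 12 months. Neither separated the ages. Over the 33 cytokine and receptor genes the median was −0.15, over 24 NF-kB and inflammasome genes −0.13 and over 23 genes of Toll-like receptor signalling −0.17. All 3 lay within 0.05 of the median feature, and they were positive without 24-month replicate 1, at 0.08, 0.10 and 0.13.

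The genes that microglia raise in disease models had differences on both sides of 0. The 19 measured members had a median difference of 0.01, or 0.33 without 24-month replicate 1, and 10 lay above 0. Ch25h, which makes 25-hydroxycholesterol, stood at 7.09, 6.27, 7.04 and 5.82 in 24-month microglia, against 5.56, 5.32, 5.38 and 5.80 in 12-month microglia. It was the 1 member of 19 without overlap, against 0.991% of all features higher without overlap. Its difference was 1.04 (SE 0.293, adjusted p = 0.279 in limma), and its 18-month mean of 5.27 lay near the 12-month level. Cd36, a scavenger receptor for oxidised lipids, stood at 8.81, 8.88, 8.47 and 9.25 in 24-month microglia, against 8.68, 7.05, 7.79 and 6.29 in 12-month microglia. The 24-month arrays were tight, the 12-month arrays spread from 6.29 to 8.68, and the difference was 1.40 (SE 0.469, adjusted p = 0.280 in limma). Axl, a receptor for dying cells, differed by 0.53 (SE 0.283), and Trem2, a lipid-sensing receptor, by −0.72 (SE 0.535), or −0.18 without 24-month replicate 1. Fcgr4, an activating antibody receptor, stood at 7.94, 9.88, 9.70 and 10.34 in 24-month microglia, against 8.02, 8.48, 8.98 and 7.59 in 12-month microglia. Replicates 2 to 4 at 24 months lay above every 12-month array, and the difference was 1.20 with replicate 1 and 1.70 without it. The 23 genes of phagocytosis and Fc receptors had a median of −0.17, and the 18 of antigen presentation −0.15, both within 0.05 of the median feature. These medians turned positive when 24-month replicate 1 was left out, at 0.18 and 0.12. The 25 lysosome and autophagy genes had a median of −0.03, or 0.15 without that array, and the 22 lipid handling genes one of 0.10.

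Secreted factors with a role in the retina had differences on both sides of 0. Over 23 neurotrophic factors and receptors the median was −0.12, the same as the median feature. Of the 13 ligands 3 were lower without overlap, against 10.7% of all features. Nrtn, neurturin, a ligand of the GDNF family, stood at 6.76, 6.62, 6.65 and 6.75 in 24-month microglia, against 7.30, 7.34, 7.18 and 6.95 in 12-month microglia. Bdnf, which supports ganglion cells, stood at 5.92, 5.83, 5.96 and 6.04 in 24-month microglia, against 6.58, 6.41, 6.42 and 6.14 in 12-month microglia. Gdnf averaged 6.11 ± 0.123 in 24-month and 6.54 ± 0.264 in 12-month microglia (SD, n = 4 each). All had mean levels below that of the median feature, and relative to the median feature they differed by −0.38, −0.33 and −0.30. Ptn, pleiotrophin, a growth factor of glia, had the largest positive difference of the list at 0.73 (SE 0.451), which was 0.30 without 12-month replicate 2 and 0.07 with the rod and microglia scores as covariates. Cfb, complement factor B of the alternative pathway, stood at 7.44, 7.15, 6.87 and 8.57 in 24-month microglia, against 7.10, 6.70, 7.10 and 6.75 in 12-month microglia. The 24-month replicate 4 was high, at 8.57, and the difference was 0.60 (SE 0.345, adjusted p = 0.386 in limma), or 0.24 without that array. Of the 22 complement genes, 8 had a difference above 0, against 32.2% of all features. Lower without overlap were 2 of them, near the background share of 10.7%, and C1ra among these differed by a small amount, −0.24 (SE 0.0883). Clu, clusterin, a complement regulator also made by Müller glia, had the highest difference of the list at 0.89 (SE 0.471), or 0.59 without 12-month replicate 2 and 0.11 with the rod and microglia scores as covariates. Vegfa, the main angiogenic factor, averaged 8.84 ± 0.285 in 24-month and 8.88 ± 0.227 in 12-month microglia (SD, n = 4 each), and the 27 angiogenesis and growth factor genes had a median of −0.09. The highest of these, Tgfb2, a growth factor of the TGF-beta family, stood at 10.00, 8.81, 8.61 and 8.46 in 24-month microglia, against 7.72, 6.64, 8.35 and 9.13 in 12-month microglia. The groups overlapped, and its difference of 1.01 (SE 0.553) was 0.57 without 12-month replicate 2 and 0.12 with both covariates. Tgfb1, of the same family, differed by 0.67 (SE 0.596), or 1.27 without 24-month replicate 1. Ptn, Clu, Tgfb1 and Tgfb2 were named after their values were seen.

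Genes of the respiratory chain were slightly higher at 24 months. Of 21 measured members 16 had a difference above 0, and the median was 0.22, or 0.34 relative to the median feature. These genes were bright, with a median level of 10.07. Features at levels near 9.68 and 10.73 had median differences of 0.11 and 0.05, so the list lay less far above features of like level. At an unadjusted p under 0.05 4 were higher, against 2.39% of all features, and 2 did not overlap, against 0.991%. Without 24-month replicate 1 the median was 0.11. Uqcrc2, a core subunit of complex III, stood at 10.77, 10.53, 10.29 and 10.39 in 24-month microglia, against 9.65, 9.96, 10.25 and 9.80 in 12-month microglia. It did not overlap and differed by 0.58 (SE 0.162, adjusted p = 0.279 in limma). Sdhb, the iron-sulphur subunit of complex II, differed by 0.56 (SE 0.236), or 0.33 without 12-month replicate 1, Ndufv2 of complex I by 0.60 (SE 0.226) and Atp5a1 of the ATP synthase by 0.39 (SE 0.162). The list's score was 0.49, 0.04, −0.04 and −0.02 on the 24-month arrays, against −0.28, −0.21, −0.17 and 0.18 on the 12-month arrays, so that 24-month replicate 1 and 12-month replicate 4, the arrays richest in rod genes, were also the highest here. With the rod and microglia scores as covariates the median was 0.00. Prdx3, the mitochondrial peroxiredoxin, stood at 7.43, 8.19, 7.60 and 8.00 in 24-month microglia, against 7.17, 6.18, 6.40 and 7.14 in 12-month microglia. It did not overlap, differed by 1.08 (SE 0.279, adjusted p = 0.279 in limma) and was 1.21 higher without 24-month replicate 1. Xrcc6, a DNA end-binding repair gene, differed by 0.85 (SE 0.264), Hmgb1, a chromatin protein that also acts as an alarm signal, by 0.54 (SE 0.185), and Sirt7, a nucleolar deacetylase gene, by −0.36 (SE 0.121), and each of these overlapped. The 24 genes of senescence and cell cycle had a median of −0.05.

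Rod and Müller glia markers were mostly higher at 24 months as well. Of 15 rod genes 14 had a difference above 0, with a median of 0.52, and of 16 Müller glia genes 15, with a median of 0.45. Gnat1, the rod transducin subunit, stood at 13.53, 13.20, 12.83 and 13.17 in 24-month microglia, against 12.61, 12.06, 12.50 and 13.29 in 12-month microglia. The groups overlapped, and the difference was 0.57 (SE 0.263, adjusted p = 0.318 in limma). Nrl, the transcription factor that sets rod identity, was the 1 rod gene of 15 without overlap, against 0.991% of all features higher without overlap. It stood at 9.08, 8.28, 8.46 and 8.35 in 24-month microglia, against 7.81, 7.38, 8.08 and 8.16 in 12-month microglia. The difference was 0.68 (SE 0.232, adjusted p = 0.281 in limma). Slc1a3, the glutamate transporter of Müller glia, stood at 10.18, 9.58, 9.29 and 9.44 in 24-month microglia, against 7.96, 8.15, 8.23 and 9.90 in 12-month microglia, with 12-month replicate 4 far above its group. Abca8a, a transporter gene of the Müller list named after its values were seen, differed by 1.55 (SE 0.728), or 0.85 without 12-month replicate 2 and 0.24 with the rod and microglia scores as covariates. Pax6, a transcription factor of amacrine cells, differed by 1.30 (SE 0.514), or 0.54 with both covariates. It was the highest of the 11 amacrine genes, of which 5 had a difference above 0, against 32.2% of all features. Of the 11, 3 were lower without overlap, against 10.7% of all features, and their median of −0.13 was close to the median feature. Medians were 0.18 over 13 cone genes and 0.29 over 10 bipolar cell genes. Without 24-month replicate 1 the medians were −0.03 for cones, −0.03 for bipolar cells, 0.32 for rods and 0.24 for Müller glia. Without 12-month replicate 2 they were 0.345 for rods and 0.16 for Müller glia. The part of these cells' RNA in the other results was not tested beyond the fit with the rod and microglia scores as covariates. In that fit the interferon median was 0.61, Plac8 differed by 2.26, Hsd17b12 by 1.19, Penk by 1.79 and Fos by −0.55. Other differences were smaller there, at 0.43 in place of 0.77 for Ifitm3, 0.62 in place of 1.09 for S100a4 and 0.38 in place of 1.06 for Slc1a3.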

How the data were processed

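The deposited values are log2 expression levels which, per the submitters' processing notes, the authors computed by RMA. The RMA version, the probe sets and any filtering are not stated in the labels. RMA corrects background, equalises probe distributions and summarises probes, which compresses low levels, and amplification of small RNA amounts can add spread. For the 8 arrays, limma 3.58.1 under R 4.3.3 fitted 1 mean per age to each feature (lmFit, eBayes, no filter). Benjamini-Hochberg adjustment ran over all 16755 features at a threshold of 0.05. The fit was tested on simulated data. Of the features 14996 had 1 gene symbol, 1019 several and 740 none, and only those with 1 were named. Gene lists numbered 23 for biology and 22 for cell types, with 662 of 815 genes measured.

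Named were the 8 smallest p-values and the 5 largest differences without overlap in each direction, the 3 smallest p-values of a list, the brightest and smallest-p marker of a cell type, identity genes and genes linked to age. Most exceptions are marked where they are named. Jund, Sdhb and Irf5 are not marked there, but they too fell outside these rules and were named after their values were seen. The members and lists were chosen with earlier results of these data known. Same-numbered replicates were not paired, since their deviations correlated at −0.12, 0.07, 0.18 and −0.33. The precision is limited by the number of arrays. Alternatives were other normalizations, variance models, blocks, covariates and leaving out each array.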

Additional observations from a re-analysis of the deposited data

Results flagged for a closer look

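Of 206 groups of 4 arrays examined, over the reported genes and list scores, 26 had an array whose gap to the nearest other array exceeded Dixon's 95% critical share of the group's range. Chance flags about 1 group in 20. In 13 of the 26 the array was 24-month replicate 1. Its levels were 9.91 for Cx3cr1, 8.69 for P2ry12, 7.20 for Tmem119, 9.39 for Csf1r, 10.4 for Aif1, 7.20 for Itgam, 9.10 for Ptprc, 7.16 for Trem2, 5.60 for C1ra and 5.87 for Cd79a, each below the other 3. Its scores were −2.26 for the microglia list, −1.91 for homeostatic microglia and 0.49 for oxidative phosphorylation.

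The 12-month replicate 4 stood apart for Csf1r (11.00), Ndufv2 (10.51), Slc1a3 (9.90) and the immediate early gene score (−0.20). The others were 24-month replicate 3 for Cpne3 (10.15) and Olfr285 (5.62), 24-month replicate 2 for Ffar1 (5.91), 24-month replicate 4 for Dusp2 (6.94), 12-month replicate 1 for Cpne3 (8.87), Gpr173 (7.31) and Xrcc6 (8.02), 12-month replicate 2 for Vegfa (8.54) and 12-month replicate 3 for Aqp2 (7.46).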

How the results depend on the processing

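The count of 0 features called at an adjusted p of 0.05 held under all 23 refits, with a smallest adjusted p in limma between 0.0506 and 0.592. At a threshold of 0.1, applied to the reported fit alone, it was also 0, but the smallest adjusted p was under 0.1 with the array number groups as a block (0.0506) and among arrays 1 to 8 (0.0851). Counting features without overlap in place of the fit gave 1953. With the replicate block 0 features were called, 388 higher and 1062 lower at an unadjusted p under 0.05. With the array number groups (1 to 8, 9 to 16) as a block it was also 0, and numbers 9 to 16 held only 24-month arrays of these ages. At an unadjusted p under 0.05, counts ran from 281 to 969 higher and from 553 to 3281 lower. Of 2082 gene values under the alternatives 2035 kept their direction, as did 81 of 91 genes throughout, and 0 passed the threshold.

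The directions that turned were those of 10 genes. With the rod score as a covariate they were 0.21 for Cx3cr1, 0.66 for Tmem119, 0.54 for Csf1r, 0.32 for Aif1, 0.80 for Itgam, 0.60 for Ptprc, 0.058 for Trem2, 0.36 for Nlrp3 and 0.18 for Ccl2. With the microglia score they were 0.24 for Tmem119, 0.18 for Csf1r, 0.038 for Aif1, 0.40 for Itgam, 0.20 for Ptprc and 0.11 for Nlrp3. With both they were 0.29 for Tmem119, 0.12 for Csf1r, 0.038 for Aif1, 0.35 for Itgam, 0.33 for Ptprc and 0.044 for Nlrp3. Tmem119, Csf1r and Aif1 are themselves members of the microglia score. Adjusting for that score takes out part of their own difference by construction, so their turns in these fits carry no separate information. Array weights gave 0.057 for Tmem119, 0.17 for Itgam, 0.01 for Ptprc and 0.021 for Vegfa. Median centring gave 0.008 for Itgam and 0.10 for Vegfa, and the array number groups and arrays 1 to 8 alone 0.21 for Vegfa. Without the 2 arrays lowest in microglia genes, an alternative added after seeing the data, values were 0.22 for Tmem119, 0.13 for Csf1r, 0.008 for Aif1, 0.29 for Itgam and 0.027 for Ptprc.

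As each array was left out, differences ran from −0.85 to 0.10 for Cx3cr1, −0.61 to 0.45 for Tmem119, −0.56 to 0.38 for Csf1r, −0.52 to 0.18 for Aif1, −0.45 to 0.60 for Itgam, −0.55 to 0.33 for Ptprc, −0.53 to 0.21 for Nlrp3, −0.88 to 0.16 for Ccl2 and −0.15 to 0.049 for Vegfa. The cause of these turns was not tested. Dim features have compressed differences, and the table gives no background level per array.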

Other observations

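None of the 6 measured B cell genes had a difference above 0, against 32.2% of all features, and their median was −0.33. Their median level was 6.21, and features at a level near 6.28 had a median difference of −0.21. Some other lists of dim genes ran the same way. Of 7 lens genes 0 lay above 0 and of 5 mast cell genes 1, both with a median of −0.23. Of 11 neutrophil genes, also dim, 4 lay above 0. Cd79b, a subunit of the B cell receptor named after its values were seen, stood at 6.37, 6.98, 7.59 and 8.31 in 24-month microglia, against 8.21, 8.57, 10.11 and 6.87 in 12-month microglia. The 12-month replicate 3 was the highest array, and the difference of −1.13 (SE 0.684) was −0.57 without it. Cd79a, its partner in the receptor, stood at 5.87, 6.53, 6.55 and 6.44 in 24-month microglia, against 7.21, 6.76, 6.88 and 7.03 in 12-month microglia. The groups did not overlap and the difference was −0.62 (SE 0.179, adjusted p = 0.279 in limma), or −0.50 relative to the median feature. The 11 T and NK cell genes had a median of −0.09, close to the median feature.

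Over 11 ganglion cell genes 4 had a difference above 0, against 32.2% of all features, and 2 were lower without overlap, against 10.7%. The median was −0.29, and features at a level near 6.64, close to this list's median level of 6.68, had a median difference of −0.23. Rbpms, an RNA-binding protein gene and the lowest of them, stood at 8.70, 8.27, 8.48 and 8.48 in 24-month microglia, against 9.06, 9.34, 8.76 and 9.48 in 12-month microglia. It did not overlap, with a difference of −0.68 (SE 0.175, adjusted p = 0.279 in limma). Pmel, a melanosome protein gene of the pigment epithelium, averaged 6.57 ± 0.192 in 24-month and 7.21 ± 0.175 in 12-month microglia (SD, n = 4 each), also without overlap. It was the lowest of 11 pigment epithelium genes, of which 6 had a difference above 0, with a median of 0.10, or −0.13 without 24-month replicate 1. Border macrophage genes scored −0.60, 0.51, 0.86 and −0.74 on the 24-month arrays, against 0.90, −0.88, 0.67 and −0.71 on the 12-month arrays, and replicates of the same age took both the highest and the lowest values.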
